A study of Homo sapiens with 4 samples.

Results

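The alpha and beta tubulin genes described here are TUBA1A, TUBA1B, TUBA1C and TUBA4A (alpha) and TUBB, TUBB2A, TUBB2B, TUBB3, TUBB4B and TUBB6 (beta), 10 of the 58735 genes in the deposited table. They were taken by gene name, from a list chosen on earlier results of these same libraries, with the log2 changes of gomisin G against vehicle known. Their differences between the groups are therefore given as a description with no test. SW1990 is an established human pancreatic cancer cell line. Cells were sampled 24 h after vehicle (2 libraries) or after 10 µM gomisin G (2 libraries), a lignan of Schisandra plants, and RNA was sequenced after removal of ribosomal RNA. Both groups are the same unmodified line in the same medium, so they differ by the compound alone as far as the labels say, and the vehicle is not named in them. The labels do not say whether the 2 libraries of a group came from separate cultures, so their spread may be technical.

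Alpha and beta tubulin form the heterodimer that polymerises into microtubules, the tracks and spindle fibres of the cell. Vertebrates carry several genes for each, called isotypes, whose proteins differ mainly in the acidic tail at the C terminus. TUBB, TUBB4B, TUBA1B and TUBA1C are broadly expressed, whereas TUBA1A, TUBB2A, TUBB2B and TUBB3 are best known from neurons. The amount of tubulin mRNA is also controlled by the protein: when free dimers are plentiful, the factor TTC5 binds the first residues of a nascent tubulin chain on the ribosome and the mRNA is degraded (tubulin autoregulation).

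The start of the coding sequence is shown because those first residues, encoded by the first 4 codons (capitals), are what TTC5 reads, and because it shows how alike the members are. The sequences are from the transcripts of GENCODE release 29, 30 bases each. TUBA1C has the same 30 bases as TUBA1A and TUBA1B.
TUBA1A: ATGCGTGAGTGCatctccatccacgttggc
TUBA1B: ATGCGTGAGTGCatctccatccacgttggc
TUBA4A: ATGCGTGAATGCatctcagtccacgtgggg
TUBB: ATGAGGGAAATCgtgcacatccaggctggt
TUBB4B: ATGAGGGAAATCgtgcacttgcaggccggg
TUBB3: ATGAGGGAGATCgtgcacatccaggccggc
TUBB6: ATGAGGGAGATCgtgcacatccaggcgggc
TUBB2A: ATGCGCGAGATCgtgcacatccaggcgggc
TUBB2B: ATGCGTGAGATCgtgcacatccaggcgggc
The 4 alpha genes used 2 versions of these first 12 bases and the 6 beta genes used 4, so the members held 6 versions in all. The versions are synonymous within each family. All 4 alpha genes encode the same first 4 residues, and so do all 6 beta genes.

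Likeness went much further in 2 sets of neighbouring genes. On chromosome 12 (GRCh38), TUBA1B lies at 49127782 to 49131397 and TUBA1A at 49184796 to 49189324, 53.4 kb apart on the minus strand, and TUBA1C at 49188736 to 49274603 on the plus strand. Their coding sequences were 97.2% (TUBA1A and TUBA1B), 96.8% (TUBA1B and TUBA1C) and 95.9% (TUBA1A and TUBA1C) identical. On chromosome 6, TUBB2A (3153669 to 3157526) and TUBB2B (3224261 to 3231730) lie 66.7 kb apart on the minus strand, and their coding sequences of 1335 bases differed at 24 positions, a 98.2% identity. The other members lie apart: TUBB at 30720201 to 30725426 on chromosome 6, TUBA4A at 219249711 to 219278170 on chromosome 2, TUBB4B at 137241213 to 137243707 on chromosome 9, TUBB3 at 89921392 to 89938761 on chromosome 16 and TUBB6 at 12307669 to 12344320 on chromosome 18. These are whole-gene spans with exons, introns and UTRs, and counts are over the exons.

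How far a read can be assigned to 1 member was measured on the transcripts. Each member's principal transcript was read in windows of 100 bases, and windows found letter for letter in a transcript of another gene were counted. None of the windows of TUBB6 were shared (0%), 1.84% of those of TUBA4A, 2.86% for TUBB4B, 5.10% for TUBB, 11.5% for TUBA1C, 18.3% for TUBA1A and 37.2% for TUBA1B. The shares were 46.2% for TUBB2B and 56.4% for TUBB2A, mostly with each other. TUBB3 stood at 89.0%, all of it with AC092143.1, which overlaps it on the same strand and has 0 counts in all 4 libraries. Its exons cover 35.8% of the exonic bases of TUBB3 (1584 bases), so this share is mostly the same stretch listed under both genes. With genes elsewhere TUBB3 shared fewer windows: 5.15% with TUBB2A, 5.15% with TUBB2B and 2.46% with TUBB4B. The labels and notes do not say how reads lying in several genes or matching several places were treated. With AC092143.1 at 0 counts, reads in the stretch it shares with TUBB3 were not counted for both genes. If they were left out, the TUBB3 counts come from outside that stretch and its level is understated. The levels of TUBB3, TUBB2A and TUBB2B, and the division between TUBB2A and TUBB2B, are thus the least certain values. The levels of TUBA1A, TUBA1B and TUBA1C, and the division among them, are uncertain in part. Reads left out for matching several places would lower a level, and reads given to a copy would shift the division.

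**Figure D1:**
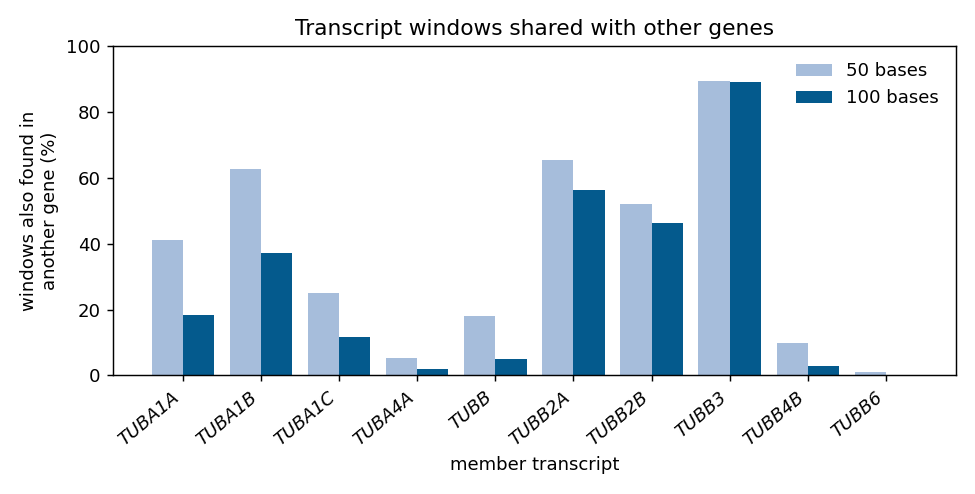
Percentage (y axis) of the 50-base (light bars) and 100-base (dark bars) windows of each member's principal transcript (x axis) that also occur in a transcript of another gene. With 100 bases the share runs from 0% for TUBB6 to 89.0% for TUBB3, where the other gene is the overlapping AC092143.1.

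Overlap on the opposite strand is a second limit, since the labels and notes do not say whether strand was used in counting. TUBA1A and TUBA1C share 490 exonic bases head to head, 14.3% of the exonic bases of TUBA1A. TUBA1B shares 36.6% of its exonic bases with AC011603.2, an antisense gene with 1 to 14 counts per library, and TUBB 16.0% with AL662797.1 (2 to 7 counts). TUBB6 shares 20.3% of its exonic bases with AFG3L2, which had 2312 to 3160 counts per library, TUBA4A 15.4% with STK16 (361 to 648 counts), and TUBB2B 7.93% with PSMG4 (353 to 401 counts).

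Total counts per library ran from 14580848 to 15245770, and 3 counts, the floor for a gene at 0, equal 0.189 to 0.207 CPM (counts scaled by library size and TMM factors). The 8 pancreatic duct epithelium markers all passed the expression filter, with summed levels of 10141 to 11925 CPM in vehicle and 7820 to 9969 CPM in gomisin G. KRT8 and KRT18 make up most of that sum and had negative log2 changes (-0.49 and -0.45), while 5 of the 8 markers had positive ones. KRT7 was low, at 0.966 and 0.875 CPM in vehicle and 2.07 and 0.884 CPM with gomisin G. Those levels are close to those of the neuronal markers RBFOX3 and SYP. The 8 neuronal markers summed to 2.41 to 3.57 CPM in vehicle and 3.79 to 4.01 CPM in gomisin G, with SNAP25, ELAVL4 and NEFM at 0 counts in every library. The 6 fibroblast markers summed to 4.62 to 4.91 CPM in vehicle and 8.57 to 11.99 CPM in gomisin G, with COL1A2 and LUM at 0. Most of that difference came from COL1A1 (mean 3.37 CPM in vehicle, 5.98 with gomisin G) and PDGFRB (1.40 and 4.15). COL3A1 and DCN had counts in gomisin G replicate 2 only, 4 and 1. The 2 gomisin G libraries differed from each other more than the 2 vehicle libraries did (chi-square of 37.2 against 6.98 per gene).

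All 10 members passed the expression filter. In vehicle, levels per kilobase of exonic sequence covered a wide range among them. The order was TUBB4B (654.1 CPM per kilobase, mean of 2 libraries), TUBB (440.1), TUBA1B (274.2), TUBA1C (106.3), TUBB6 (86.2), TUBB2A (16.8), TUBA4A (9.17), TUBA1A (5.94), TUBB2B (2.87) and TUBB3 (0.377). No 2 neighbours in this order had overlapping vehicle libraries. The TUBB3 level divides by all its exonic bases, with the 1584 shared with AC092143.1 included. It may thus be too low, and the place of TUBB3 in either group is not certain. With gomisin G the first 5 places were the same, and TUBA1A moved from rank 8 to rank 6, at 27.2 CPM per kilobase. There the libraries of TUBA1A (30.9 and 23.4) and TUBB2A (23.2 and 26.5) overlapped, as did those of TUBA4A (10.4 and 5.99) and TUBB2B (6.01 and 5.09). With the length of the principal transcript in place of all exonic bases, the mean of TUBA1B stood above that of TUBB in both groups. It was 602.3 and 553.6 CPM per kilobase in vehicle, 459.5 and 453.2 with gomisin G. The mean of TUBB6 stood above that of TUBA1C in vehicle only. These are orders of group means. The libraries of TUBA1B and TUBB overlapped with gomisin G, and those of TUBB6 and TUBA1C overlapped in vehicle.

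**Figure D2:**
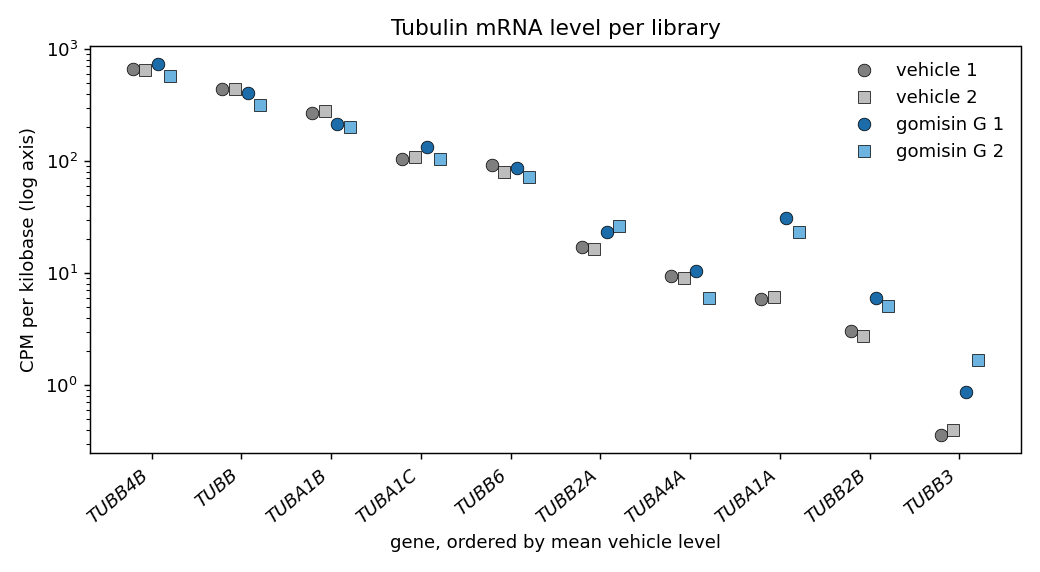
Level of each member in CPM per kilobase of exonic sequence (y axis, log scale) in each of the 4 libraries, with genes on the x axis ordered by their mean in vehicle. TUBA1A, TUBB2A, TUBB2B and TUBB3 have both gomisin G points above both vehicle points. The TUBB3 level may be too low, as its bases shared with AC092143.1 are part of the divisor.

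TUBA1A, the alpha isotype best known from developing neurons, had the largest difference among the members. It had 19.9 and 20.8 CPM in vehicle replicates 1 and 2, and 105.8 and 80.0 CPM in gomisin G replicates 1 and 2. Both gomisin G libraries lay far above both vehicle libraries, and the groups did not overlap. The log2 change, gomisin G minus vehicle, was 2.19 (SE 0.19), a 4.57-fold higher mean. Of all tested genes 0.261% had a larger log2 change.

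TUBA1B, a main alpha isotype of dividing cells, went the other way. It had 953.3 and 1007 CPM in vehicle and 769.5 and 725.7 CPM with gomisin G, a log2 change of -0.39 (SE 0.18). Again the groups did not overlap, now with both gomisin G libraries below. TUBA1C, the other abundant alpha isotype, had 482.1 and 502.6 CPM in vehicle and 619.9 and 479.4 CPM with gomisin G (log2 change 0.16, SE 0.19). TUBA4A, an isotype abundant in platelets and muscle, had 38.1 and 36.7 CPM in vehicle and 42.4 and 24.4 CPM with gomisin G (log2 change -0.16, SE 0.25). For TUBA1C and TUBA4A gomisin G replicate 1 was above and replicate 2 below both vehicle libraries. Their direction rested on 1 library: leaving out gomisin G replicate 1 gave log2 changes of -0.04 for TUBA1C and -0.62 for TUBA4A, and leaving out the other gave 0.33 and 0.18.

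Among the beta genes, TUBB3, the class III isotype used as a neuronal marker, had the highest fold. Its raw counts were 23 and 26 in vehicle and 56 and 117 with gomisin G, or 1.59 and 1.75 against 3.87 and 7.39 CPM. The groups did not overlap, but the gomisin G libraries were far apart. In RNA from bulk cells, more cells with a transcript and more of it per cell cannot be told apart. The log2 change was 1.76 (SE 0.40), and leaving out gomisin G replicate 2 gave 1.21, leaving out the other 2.14. The summed neuronal markers were also higher with gomisin G, at the levels of a few CPM given above. Most of that came from SYP (mean 1.23 CPM in vehicle, 2.16 with gomisin G). RBFOX3 (1.36 and 1.30), SYT1 (0.338 and 0.336) and ELAVL3 (0.069 and 0.032) were not higher. The part of these markers in the TUBB3 difference was not tested.

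TUBB2B, a class II isotype of the nervous system, had 6.62 and 5.99 CPM in vehicle and 13.2 and 11.2 CPM with gomisin G (log2 change 0.95, SE 0.22). Its near-copy TUBB2A had 29.4 and 28.5 CPM in vehicle and 40.1 and 45.8 CPM with gomisin G (log2 change 0.57, SE 0.17). In both genes the gomisin G libraries lay above the vehicle libraries. The ratio of TUBB2B to TUBB2A counts was 0.225 and 0.210 in vehicle and 0.329 and 0.244 with gomisin G.

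The abundant beta genes differed less. TUBB, the class I isotype found in most cells, had 1467 and 1490 CPM in vehicle and 1363 and 1058 CPM with gomisin G (log2 change -0.29, SE 0.21), with both gomisin G libraries below. TUBB4B, the class IVb isotype, had 1390 and 1371 CPM in vehicle and 1535 and 1215 CPM with gomisin G (log2 change -0.01, SE 0.20), and TUBB6, the class V isotype, had 379.6 and 330.5 CPM in vehicle and 356.8 and 298.9 CPM with gomisin G (log2 change -0.12, SE 0.18). The groups overlapped in these last 2 genes. The ratio of TUBB to TUBB4B counts, taken within each library, was 1.05 and 1.09 in vehicle and 0.888 and 0.871 with gomisin G.

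Both gomisin G libraries lay above both vehicle libraries in 4 members (TUBA1A, TUBB2A, TUBB2B and TUBB3) and below in 2 (TUBA1B and TUBB), and overlapped in 4. Of all 15721 tested genes 54.2% had libraries that did not overlap in one direction or the other. The 4 genes that were higher are all among the less abundant members, below 30 CPM in each vehicle library. The median log2 change of the 10 members was 0.08, against 0.01 over all tested genes. By the all-gene test (edgeR, adjusted p below 0.05) 287 genes passed, 1.83% of those tested, with 0.922% rising and 0.903% falling, and 1 of the 10 members, TUBA1A, was among them. Since the list was made with this contrast known, nothing is read from that count or from the member counts under any other setting. Calls under other settings are given with the share of all tested genes that each called. DESeq2 called 3 members (TUBA1A, TUBB2B and TUBB3) and 6.5% of all genes, and limma voom called TUBA1A and 1.68%. With edgeR the removal of a trend with gene length gave 2 members (TUBA1A and TUBB3) and 5.18% of all genes. Leaving out gomisin G replicate 1 gave 7 members and 17.1%, and leaving out the other gave 6 members and 38.6%.

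The summed level of the family did not separate the groups in the CPM values, but did once a trend with gene length was removed. The 4 alpha genes summed to 1493 and 1567 CPM in vehicle and 1538 and 1310 CPM with gomisin G. The 6 beta genes summed to 3274 and 3228 CPM in vehicle and 3312 and 2635 CPM with gomisin G. Gomisin G replicate 1 lay between the vehicle libraries for alpha and above both for beta, and replicate 2 was the lowest of the 4 in both sums. The log2 changes were -0.11 for alpha (pooled SD between replicates 0.12), -0.14 for beta (0.17) and -0.13 for all 10 (0.15), each smaller than the spread between replicates. With the length trend removed they were -0.16 (0.12), -0.27 (0.12) and -0.24 (0.12), each larger than that spread, and both gomisin G libraries lay below both vehicle libraries in all 3 sums. The all-member value depended on single libraries, being -0.28 when gomisin G replicate 1 was left out and 0.02 when the other was. The 10 genes together held 0.410 to 0.478% of all counts.

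The make-up of the sums also differed, which does not depend on a single scaling factor per library. TUBA1A was 1.33% of alpha counts in each vehicle library and 6.88% and 6.11% with gomisin G. TUBA1B was 63.8% and 64.3% in vehicle and 50.04% and 55.4% with gomisin G, and TUBA1C was 32.3% and 32.1% in vehicle and 40.3% and 36.6% with gomisin G. With the length trend removed TUBA1A was 1.34% and 1.35% in vehicle and 6.67% and 6.13% with gomisin G. The ratio of TUBA1A to TUBA1B counts was 0.0208 and 0.0207 in vehicle and 0.137 and 0.110 with gomisin G. Among beta counts TUBB was 44.8% and 46.1% in vehicle and 41.1% and 40.1% with gomisin G, and TUBB4B was 42.5% in each vehicle library and 46.4% and 46.1% with gomisin G. TUBB2A, TUBB2B and TUBB3 were each below 2% of beta counts in every library. Beta counts were 2.01 to 2.19 times alpha counts in the 4 libraries, with no gap between the groups.

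**Figure D3:**
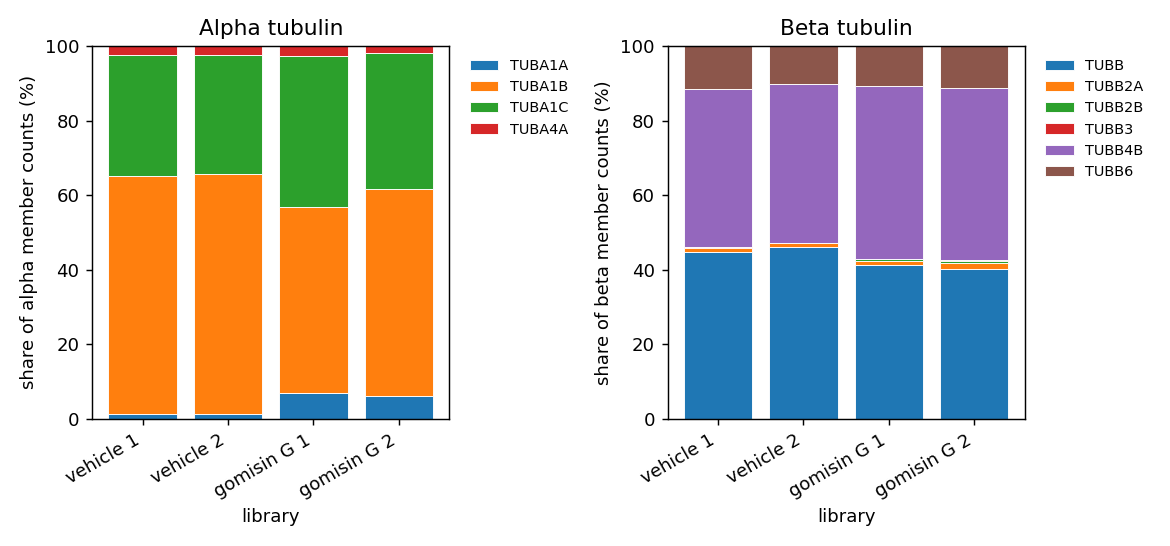
Share of each isotype (colours, y axis in percent) in the summed raw counts of the 4 alpha members (left) and the 6 beta members (right) in each library (x axis). TUBA1A goes from 1.33% of alpha counts in the vehicle libraries to 6.88% and 6.11% in the gomisin G libraries.

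TUBA1A and TUBA1B differ little in coding sequence, so their promoters, 250 bases before to 50 after the RefSeq start (GRCh38.p14), are shown beside their opposite differences. Capitals mark matches, on either strand, to CCAAT (a textbook motif of NF-Y), GGGCGG (of SP1), TATAAA (of the TATA-binding protein) or TGANTCA (of AP-1). The first is chr12:49189031-49189330 and the second chr12:49131346-49131645, both read on the minus strand.
TUBA1A: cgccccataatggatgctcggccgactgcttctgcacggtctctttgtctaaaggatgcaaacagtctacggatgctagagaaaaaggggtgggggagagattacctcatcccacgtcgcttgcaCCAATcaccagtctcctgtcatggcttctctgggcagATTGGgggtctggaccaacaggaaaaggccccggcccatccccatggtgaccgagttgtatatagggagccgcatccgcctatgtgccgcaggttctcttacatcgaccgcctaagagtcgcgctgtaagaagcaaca
TUBA1B: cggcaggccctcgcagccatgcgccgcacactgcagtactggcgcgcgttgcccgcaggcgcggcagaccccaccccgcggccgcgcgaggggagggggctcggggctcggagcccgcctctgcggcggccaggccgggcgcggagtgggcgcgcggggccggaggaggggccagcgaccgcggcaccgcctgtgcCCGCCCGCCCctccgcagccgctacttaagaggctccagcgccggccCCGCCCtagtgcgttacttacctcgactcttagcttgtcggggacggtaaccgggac
The TUBA1A window held 2 CCAAT and 0 GGGCGG matches with 55.7% G and C, and the TUBA1B window 0 and 3 (a pair of them overlapping) with 77.0% G and C. Neither held TATAAA, and neither held TGANTCA. Of 35116 promoters of this length, 34.6% held CCAAT, 44.95% GGGCGG, 11.5% TATAAA and 7.71% TGANTCA. All 10 members had an entry, 15 in all as some have several starts. These matches are a description of the letters in these windows.

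The 3 protein-coding genes nearest to TUBA1A in their level across the 4 libraries were CDKN1C, LCN15 and MXD4, among 9925 genes, by Euclidean distance of mean-centred log2 CPM (0.28, 0.32 and 0.36). CDKN1C, which encodes the cell cycle inhibitor p57, had 8.69 and 8.28 CPM in vehicle and 41.3 and 27.0 CPM with gomisin G. The lipocalin gene LCN15 had 4.69 and 3.70 against 19.96 and 17.4 CPM, and MXD4, a MAX-binding repressor gene, 20.6 and 24.5 against 96.0 and 100.7 CPM. By the way they were chosen, all 3 share with TUBA1A low vehicle and high gomisin G libraries. Nearest to the sum of the 10 members were FAS, LRP3 and SSB (distances 0.02 each). By the same choice they had, like the sum, their lowest level in gomisin G replicate 2. FAS, a death receptor gene, had 27.2 CPM in each vehicle library and 27.2 and 22.2 CPM with gomisin G.

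Genes that make, fold, modify and nucleate tubulin were tested in the same fit, from 6 lists of 125 genes of which 107 were tested. One passed: FIGNL1, a relative of the microtubule-severing enzyme fidgetin that is also known from DNA repair, fell. It had 31.1 and 28.2 CPM in vehicle and 11.9 and 14.9 CPM with gomisin G, a log2 change of -1.14 (SE 0.19, edgeR adjusted p = 0.0328). The call was lost without vehicle replicate 1 (edgeR adjusted p = 0.134) and without vehicle replicate 2 (0.0564), and over all 12 alternatives the adjusted p ran from 3.93e-11 to 0.134. The share of 0.935% called stands beside the 1.83% of all genes. These lists too were chosen with earlier results of these data known, so nothing further is read from that share. An unadjusted p below 0.05, counted in each list below, was reached by 22 of the 107 genes and by 20.6% of all tested genes.

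Other tubulin genes came with low counts or small differences. Of 12, 8 were tested and edgeR called 0 (1 had an unadjusted p below 0.05, and DESeq2 and limma voom called 0), with a median log2 change of 0.03. TUBG1, the main gamma tubulin of the centrosome, had 79.3 and 74.4 CPM in vehicle and 82.1 and 73.6 CPM with gomisin G (log2 change 0.02). Its paralogue TUBG2 had 23.5 and 24.3 against 31.9 and 34.0 CPM (0.46, edgeR adjusted p = 0.173). Of 39 tubulin pseudogenes 14 had any count and 2 had at least 20 over the 4 libraries. TUBBP1, a processed copy of TUBB, had 81 and 82 counts in vehicle and 34 and 50 with gomisin G, and TUBAP2 had 52, 46, 39 and 31.

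The folding list (prefoldin, the CCT chaperonin and the cofactors that join alpha to beta) had 21 tested genes, 9 with a positive and 12 with a negative log2 change and a median of -0.05. Here edgeR and limma voom called 0 (2 had an unadjusted p below 0.05). DESeq2, which called 6.5% of all genes, called 2, TBCB and ARL2, both higher. The chaperonin subunit gene CCT7 had 653.2 and 607.3 CPM in vehicle and 676.2 and 544.0 CPM with gomisin G (log2 change -0.05), and CCT3 626.3 and 594.6 against 657.6 and 553.4 CPM (-0.01). Like the sum of all 10 members, both were highest in gomisin G replicate 1 and lowest in replicate 2.

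The mRNA decay list (TTC5, its partner SCAPER and the CCR4-NOT deadenylase) had 12 tested genes and a median of -0.18, with edgeR, DESeq2 and limma voom calling 0 (2 had an unadjusted p below 0.05). CNOT1, the scaffold of CCR4-NOT, had 339.6 and 427.5 CPM in vehicle and 156.0 and 304.8 CPM with gomisin G (log2 change -0.73, edgeR adjusted p = 0.221). CNOT7, a deadenylase subunit, had 136.4 and 130.3 against 124.9 and 120.2 CPM (-0.12). TTC5 itself, named after its value was seen, had 16.3 and 13.2 against 16.0 and 13.2 CPM (-0.02, SE 0.21).

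Of the tubulin-modifying enzymes 20 of 27 were tested, with a median of 0.10 and 0 calls by edgeR, DESeq2 and limma voom (5 had an unadjusted p below 0.05). TTL, which restores the C-terminal tyrosine of alpha tubulin, had 114.8 and 112.9 against 95.9 and 118.1 CPM (-0.09), and TTLL12 had 239.0 and 234.2 against 243.3 and 266.6 CPM (0.11). The nucleation list, the gamma-tubulin ring complex and its recruiters, had 20 tested genes, 17 of them with a negative log2 change and a median of -0.31. There edgeR and limma voom called 0 (5 had an unadjusted p below 0.05). DESeq2, which called 6.5% of all genes, called HAUS6, lower. PCNT, the pericentrin gene, had 186.2 and 195.8 against 110.5 and 197.0 CPM (-0.31), and MZT2A 114.2 and 82.7 against 165.6 and 109.5 CPM (0.48). In both genes 1 gomisin G library lay within or next to the vehicle range. Of microtubule-associated and dynamics proteins 26 of 33 were tested, with a median of -0.10 and FIGNL1 as the only edgeR and limma voom call (7 had an unadjusted p below 0.05). DESeq2 called FIGNL1 and also STMN3, higher, beside 6.5% of all genes. STMN1, which encodes the dimer-binding protein stathmin, had 396.3 and 363.3 against 575.7 and 369.3 CPM (0.32), and MAP4, a lattice-binding protein gene, 274.8 and 302.2 against 259.5 and 338.7 CPM (0.05).

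**Figure D4:**
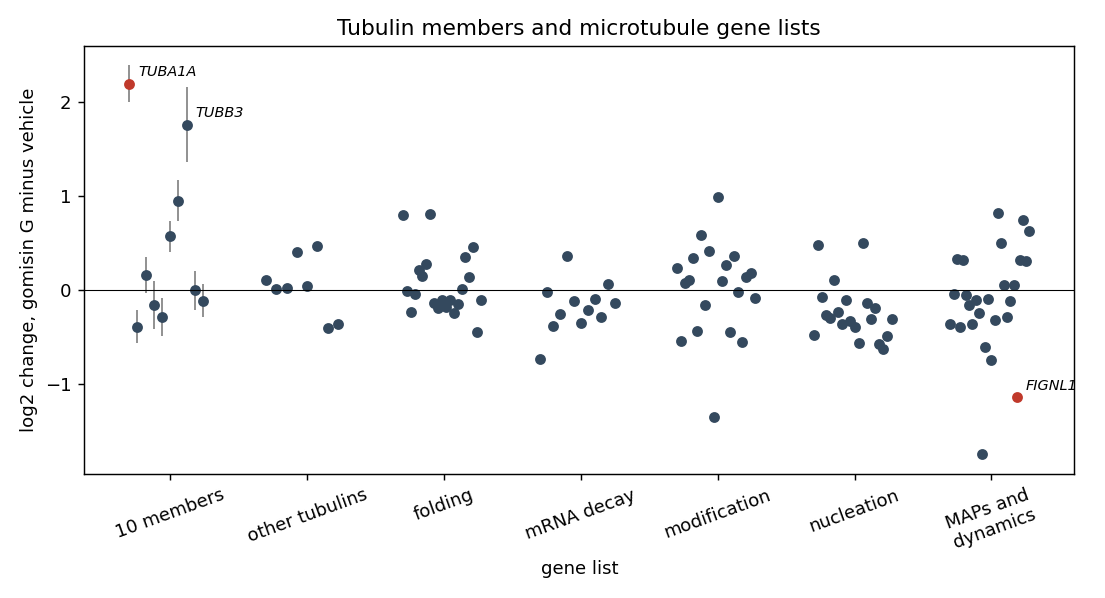
Log2 change, gomisin G minus vehicle (y axis), of each tested gene in the members and in the 6 lists (x axis). Red marks genes past the all-gene threshold, TUBA1A and FIGNL1, and bars on the members are standard errors. The members run from TUBA1B at -0.39 to TUBA1A at 2.19.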

How the data were processed

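RNA of SW1990 cells was measured in 4 libraries. The authors deposited a table of unnormalised read counts, made with fastp, HISAT2 and featureCounts on hg38, per the submitters' processing notes; versions and settings are not given in the sources used here. The table of the series and the sample tables held the same counts (0 values differed). Gene names, coordinates and lengths are those of the deposited table. The length equals the exonic bases of GENCODE 29 in all 10 members. Members and gene lists were chosen with earlier results of these data known.

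Counts were fitted with edgeR 4.0.16 in R 4.3.3 (default expression filter by group, TMM factors, quasi-likelihood F test, robust, non-legacy dispersions, treatment alone as design), with Benjamini-Hochberg adjustment over all 15721 tested genes and a threshold of 0.05. The members are part of that fit, but no p-value is printed for them and nothing is read from their calls. The SE is the log2 change divided by the square root of F. DESeq2 1.42.0, limma 3.58.1 (voom), other factors, no filter, a length trend removed by offsets, a replicate block and each library left out were alternatives, and legacy dispersion estimation was one chosen after seeing the data. The fits were tested on simulated data first. Sequences were compared with BLAST 2.17.0 and Biopython 1.88.

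Named genes are the 10 members; in each list up to 6 called genes with the lowest p and the 2 most abundant uncalled ones; the 3 nearest genes to TUBA1A and to the member sum with mean log2 CPM of at least 3; and pseudogenes with at least 20 counts. The floor of 3 counts covers counting error only, and the SE includes the spread between libraries.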

Additional observations from a re-analysis of the deposited data

How the results depend on the processing

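Over 12 alternatives the log2 change of TUBA1A ran from 1.97 (without gomisin G replicate 1) to 2.38 (without gomisin G replicate 2), and TUBA1A, TUBA1B, TUBB, TUBB2A, TUBB2B and TUBB3 kept their direction in all of them. TUBA1C, TUBA4A and TUBB6 changed sign when 1 gomisin G library was left out, and TUBB4B changed sign under 2 alternatives. With the length trend removed TUBB2A was 0.38, TUBB2B 0.77 and TUBB4B -0.20, and the sums were -0.16 for alpha, -0.27 for beta and -0.24 for all members. The log2 change of the summed beta members (-0.14) ranged from -0.31 to 0.028, and that of all members (-0.13) from -0.28 to 0.021, when 1 library was left out.

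The count of genes called over all genes (287) was 883 with DESeq2 and 815 with the length trend removed, and ran from 135 to 6322 when 1 library was left out. Called genes of the 6 tubulin pathway lists (1) numbered 5 with DESeq2 and 3 with the length trend removed, and 0 to 48 when 1 library was left out. Fits that leave out a library take their spread from the other group's pair, and the lone sample is assumed to vary like it. With a replicate block 2886 genes (18.4%), 21 pathway genes and 4 members were called. The labels do not say that numbers mark a shared culture or day, and the differences between replicates 1 and 2 correlated at 0.21 between the groups across genes, which are not independent, so the numbers were not used to pair samples. The cause of these shifts was not tested. Low counts limit TUBB3 and TUBB2B, which had 23 to 191 counts per library. Depth and the windows they share with other genes may both have a part in this, which was not tested.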
